A study of Homo sapiens with 40 samples.

Results

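The genes described here were close to silent in HEK293T cells, a human embryonic kidney line, until the cells were given the guanosine analogue 6-thioguanosine (s6G). The selection used input RNA, which is the polyA RNA of the cells before any capture step, and the level of a gene was its count per 1000000 counts of the library (CPM). A gene was taken when it was under 1 CPM in all 8 input libraries made without a thionucleoside, at 1 CPM or more in all 4 s6G inputs of the MITO and LMNB1 cells, and at least 4 times higher on average in the second set. Genes with names beginning HIST, ZNF, LINC or SLC or ending in -AS1 were dropped. Of the 57992 genes in the count table, 41079 met the first condition, 88 of these met the second, 79 reached the ratio, and 69 remained after 10 names were dropped. In RefSeq, 48 of the 69 are protein-coding, 3 are long noncoding RNAs, 4 are pseudogenes and 14 found no match.

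The cells expressed APEX2, an engineered peroxidase that, given peroxide, makes a reactive radical of biotin-phenol which tags molecules close by with biotin. APEX2 was sent to the mitochondrial matrix (MITO), the endoplasmic reticulum membrane (ERM), the cytosol (NES) or the nuclear lamina (LMNB1). In the s6G arms of all 4 constructs, and in an arm of the MITO construct given 4-thiouridine (s4U), cells received 100 µM of the thionucleoside for 4.5 h, then 0.5 mM biotin-phenol for 30 min, with peroxide (1 mM) in the last 1 min. No thionucleoside was given in the APEX-only arms of MITO and LMNB1, which had biotin-phenol and peroxide, and the unlabelled arms of the same 2 constructs had peroxide with neither thionucleoside nor biotin-phenol. Each of these 9 sets of cells gave 2 input and 2 streptavidin-enriched libraries, and ERM gave 4 of each, which makes 40 libraries in 18 groups of inputs or of enriched RNA. The ERM and NES cells had no arm without s6G. The characteristics of 8 libraries (4 enriched ERM and 4 LMNB1) name s4U, although their titles, like the design text, name s6G, and grouping went by title. For the LMNB1 inputs the levels of the selected genes cannot check this choice, because those inputs took part in the selection. The labels call the libraries biological replicates and do not say whether they came from separate days of culture.

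Thionucleosides enter cells, are phosphorylated and are built into new RNA in place of the normal base, and s6G stands in for guanosine as s4U stands in for uridine. Guanosine analogues can also enter the pools of nucleotides that cells use for signalling and DNA synthesis, and 6-thioguanine in DNA is the basis of thiopurine drugs. In bulk RNA, a low level in every cell and a high level in a few cells cannot be told apart. A gene that is near silent in a cell line is commonly held so by chromatin and by the lack of its tissue-specific activators. Many of the genes here belong to other tissues: MYO1G is a class I myosin of blood cells, EVPL (envoplakin) a desmosome and cornified-envelope protein of stratified epithelia, and C1orf116 an androgen-regulated gene of epithelia.

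Promoters are shown for 3 of these genes, because they were among the best expressed in s6G inputs and differ in their base composition. Each is the stretch from 250 bases before to 50 bases after the RefSeq start (GRCh38.p14), printed 5′ to 3′ on the gene's strand, with matches to 5 searched motifs in capitals. Both strands were searched for the TATA box, written TATAAA. The site of AP-1, the dimer of FOS and JUN proteins, was written TGANTCA. The response element for cyclic AMP was written TGACGTCA. The GC box was written GGGCGG, and the last motif was the CCAAT box. The MYO1G promoter (chr7:44978966-44979265, minus strand) has 11 CpG dinucleotides and 2 GC-box matches that lie side by side. The PRR18 promoter (chr6:166308343-166308642, minus strand) has 34 CpG and 1 GC-box match. The C1orf116 promoter (chr1:207032707-207033006, minus strand) has 1 CpG, 2 CCAAT matches and 1 AP-1 match.
MYO1G: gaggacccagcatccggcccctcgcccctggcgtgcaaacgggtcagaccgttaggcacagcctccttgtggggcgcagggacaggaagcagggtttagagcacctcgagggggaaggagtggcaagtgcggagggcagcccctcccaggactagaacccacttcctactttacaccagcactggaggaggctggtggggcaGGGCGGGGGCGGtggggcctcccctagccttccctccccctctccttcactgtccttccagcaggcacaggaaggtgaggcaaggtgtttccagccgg
PRR18: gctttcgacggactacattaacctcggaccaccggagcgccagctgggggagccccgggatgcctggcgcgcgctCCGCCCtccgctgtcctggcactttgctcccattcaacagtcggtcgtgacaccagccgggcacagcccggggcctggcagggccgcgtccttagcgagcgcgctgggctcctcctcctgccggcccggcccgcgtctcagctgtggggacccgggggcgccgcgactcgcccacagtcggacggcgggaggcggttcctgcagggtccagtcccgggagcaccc
C1orf116: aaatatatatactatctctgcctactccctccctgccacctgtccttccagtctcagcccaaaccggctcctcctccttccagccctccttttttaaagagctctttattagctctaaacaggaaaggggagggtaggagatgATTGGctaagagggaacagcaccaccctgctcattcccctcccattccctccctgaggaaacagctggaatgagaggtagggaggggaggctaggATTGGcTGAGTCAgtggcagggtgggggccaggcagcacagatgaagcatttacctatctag

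Across the 35 selected genes found in the RefSeq promoter table, with 49 promoters, the motifs were no more frequent than elsewhere. A match to TGANTCA stood in 6.12% of these promoters and in 7.71% of all 35116 promoters of the same length. GGGCGG stood in 40.8% against 45.0%, CCAAT in 26.5% against 34.6%, TATAAA in 2.04% against 11.5% and TGACGTCA in none of 49 against 1.85%. The median number of CpG per promoter was 10 against 14. The 3 genes with an AP-1 match were C1orf116, P4HTM and CTB-33O18.3. A match describes the letters of the window and does not show that a factor binds.

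Input libraries held 3514076 to 12602028 counts, so that 1 count was worth between 0.07935 and 0.2846 CPM. Enriched libraries with a probe held 2720817 to 14496768 counts. Of the 4 unlabelled enriched libraries 3 stood apart: both MITO ones and LMNB1 library 1 held 123341, 842177 and 1492243 counts, and 4829, 8954 and 5217 of the 41079 near-silent genes reached 1 CPM in them, against 223 to 1861 in the s6G enriched MITO and LMNB1 libraries. Unlabelled LMNB1 library 2 held 3876715 counts, with 1557 such genes. ERM libraries 1 and 2 held fewer counts than ERM libraries 3 and 4, and ERM results are also given for each pair. In enriched ERM libraries 3 and 4 the deposited counts of all 69 genes were even numbers (MYO1G 246 and 286, C1orf116 518 and 488). The other ERM libraries held odd counts as well. The cause was not tested. The depth of these 2 libraries is therefore uncertain, and so are the ERM standard errors, adjusted p-values and calls that rest on their counts. Of 10 genes that mark the line (among them VIM, KRT8, KRT18 and GATA3) none was near silent, and their summed level was 452.7 to 1021 CPM in the control inputs and 484.7 to 1123 CPM in the s6G inputs of the selection. Among these 10, SALL2 was lower without overlap, at 11.1 to 38.8 CPM in those s6G inputs against 43.95 to 87.08 CPM in the controls.

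The values that chose the genes are given as a description. The 69 genes together made up 11.5 to 21.5 CPM in the 8 control inputs, and 240.5 and 263.5 CPM in the MITO s6G inputs and 183.1 and 229.9 CPM in the LMNB1 s6G inputs. Over the 4 s6G inputs a gene had 24 to 294 counts (median 39), and over the 8 control inputs 0 to 30 counts (median 8). The ratio of the means ran from 4.17 to 142.5 with a median of 12.1 for the 66 genes with any count in the controls. PYCARD (adaptor of the inflammasome), PRLHR (receptor for prolactin-releasing peptide) and the unmatched RP13-672B3.5 were at 0 in all 8 controls. Against a floor of 3 counts over the control group they were at least 32.6-fold, 22.4-fold and 20.8-fold higher.

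The highest finite ratios belonged to KLHL35 (142.5, a kelch-repeat protein), PRR18 (107.8) and EVPL (99.8). Just inside the ratio limit were PTGER1 (4.17, a prostaglandin E2 receptor), the pseudogene SERPINH1P1 (4.56) and ACSL5 (4.63, a long-chain fatty acyl-CoA synthetase). Just outside it were ADCY10 (3.84), SLC47A2 (3.58) and RP11-355B11.2 (3.54). The opposite rule, for genes at 1 CPM or more in all 8 controls and under 1 CPM in the 4 s6G inputs, found 9 genes, of which 3 reached the ratio and 2 passed the name filter. The number selected depended on 1 library: without the first LMNB1 s6G input the rule selected 110 genes, and without any other single input of the 12 it selected 70 to 94.

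**Figure D1:**
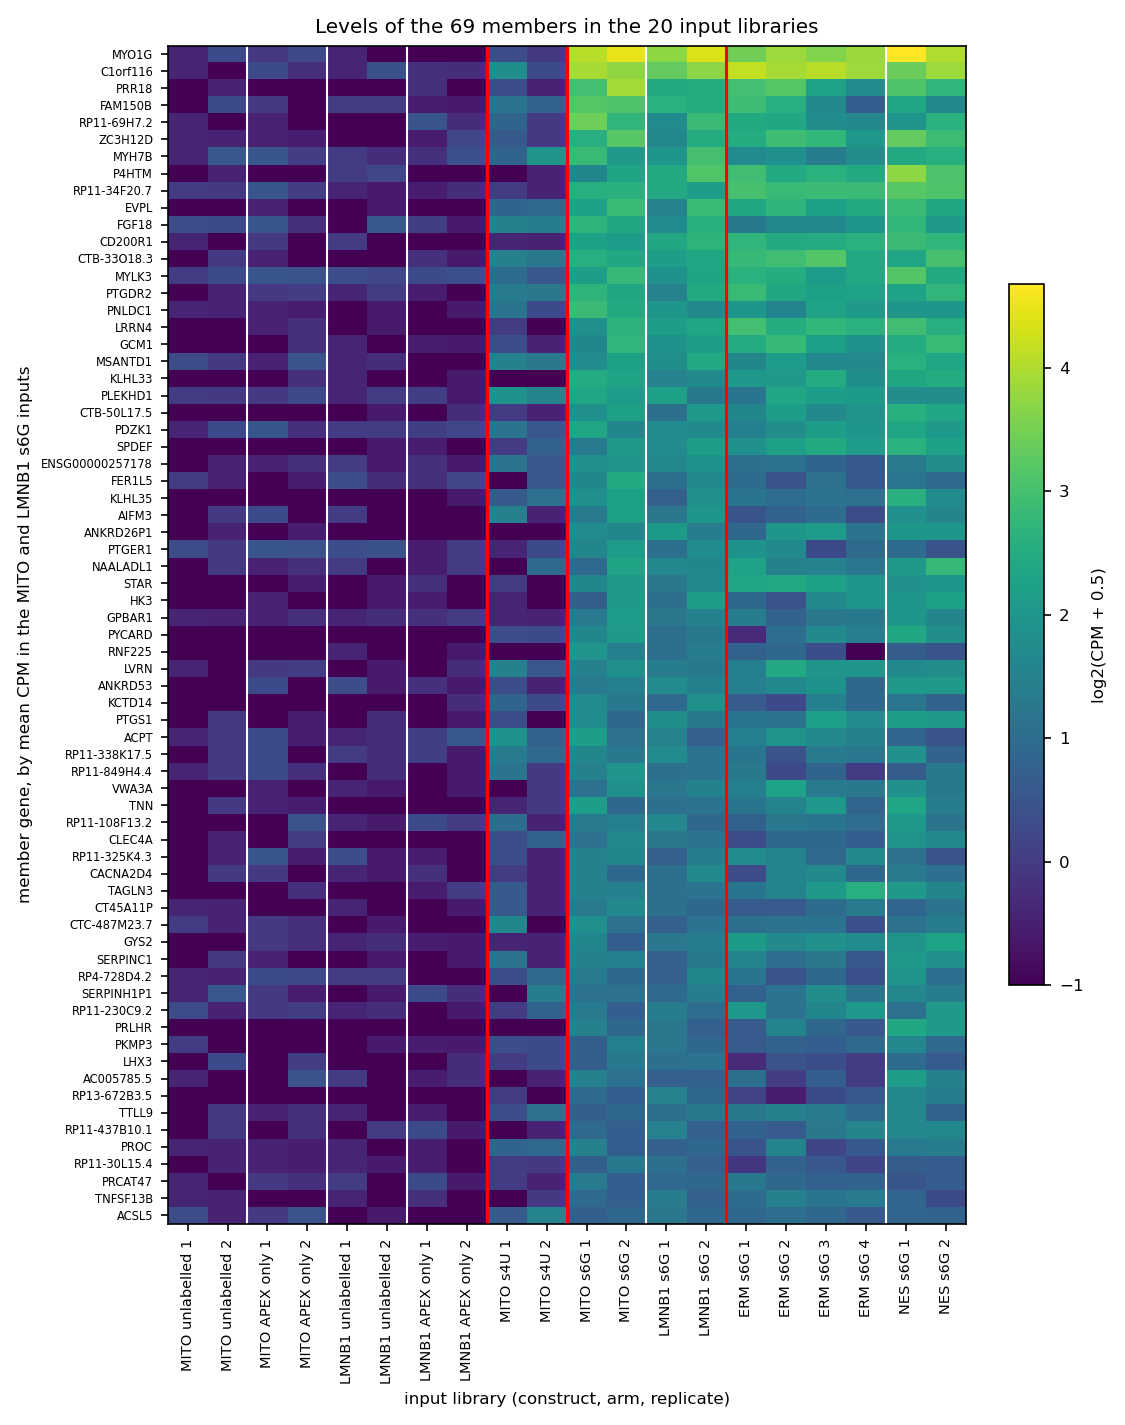
Levels of the 69 genes (rows, ordered by their mean in the 4 s6G inputs of the selection) in the 20 input libraries (columns), as log2(CPM + 0.5). Red lines part, from left to right, the 8 control inputs, the 2 s4U inputs, the 4 s6G inputs used by the selection and the 6 ERM and NES inputs that it did not use. The first 8 columns are dark because the rule demanded it, the 6 columns on the right are not, and the 2 s4U columns lie between.

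Sorted by what the genes are known for, an assignment made after the list was seen, 8 of the 69 are genes of blood and immune cells. These are MYO1G, the prostaglandin D2 receptor PTGDR2, the inhibitory receptor CD200R1, the RNA-degrading zinc-finger protein ZC3H12D, the hexokinase HK3, PYCARD, the lectin CLEC4A and the cytokine TNFSF13B (BAFF). A further 6 are genes of epithelia and placenta: EVPL, C1orf116, the ETS factor SPDEF, the scaffold protein PDZK1, the aminopeptidase LVRN and the trophoblast factor GCM1. The liver genes are GYS2 (glycogen synthase), SERPINC1 (antithrombin) and PROC (protein C). The muscle genes are MYLK3 (cardiac myosin light chain kinase), MYH7B (a myosin heavy chain) and FER1L5 (a ferlin). The 7 genes of the nervous system and endocrine organs are PRR18, LRRN4, STAR (cholesterol transport in steroid synthesis), CACNA2D4 (a calcium-channel subunit), TAGLN3, PRLHR and LHX3 (a pituitary homeobox factor). FAM150B (a ligand of the receptor ALK), FGF18 (a fibroblast growth factor), PTGER1, GPBAR1 (a bile acid receptor) and TNN (tenascin N) are 5 secreted proteins or receptors. The other 16 protein-coding genes have mixed or little-known roles, and 21 are noncoding, pseudogenes or unmatched. The other near-silent genes were not sorted by role, so these counts have no share to be set against. PTGS1 (cyclooxygenase 1), PTGDR2 and PTGER1 are genes of the prostanoid pathway, picked out after the list was seen and likewise without such a share.

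The ERM and NES inputs came from other cultures that all received s6G, and they played no part in the selection. In these 6 libraries the 69 genes summed to 189.8 to 291.6 CPM, close to the 183.1 to 263.5 CPM of the s6G inputs used for the selection. At least 1 CPM was reached in all 6 inputs by 43 of the 69 genes, against 101 (0.246%) of the 41079 near-silent genes, a count that includes the 43. Unlike the 69, the near-silent genes were not chosen to be detectable with s6G. The rest of the 69 reached 1 CPM in 5 (15 genes), 4 (6 genes), 3 (3 genes) or 2 (2 genes) of the 6 inputs. For 62 of the 69 the lowest of the 6 inputs lay above the highest of the 8 control inputs, against 1.05% of the near-silent genes. The exceptions were PTGER1, RNF225, ACPT, LHX3 and 3 unmatched genes. No test against controls was made, because the controls were chosen to be low and belong to other constructs.

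All 6 genes of epithelia and placenta were at 1 CPM or more in every ERM and NES input, with means of 3.29 to 14.3 CPM. Of the 8 blood and immune genes 4 were, with means of 1.60 to 15.1 CPM over all 8. The count was 4 of 7 for the nervous and endocrine genes, 4 of 5 for the secreted proteins and receptors, 2 of 3 for muscle, 1 of 3 for liver, 11 of 16 for the other coding genes and 11 of 21 for the noncoding and unmatched ones. The lowest mean was that of LHX3 at 0.832 CPM. RNF225, a RING-finger protein, was at 1.20, 1.40, 0.794 and 0 CPM in the ERM inputs and at 1.11 and 0.885 CPM in the NES inputs, below its 1.65 to 3.42 CPM in the s6G inputs of the selection. Across the 69 genes the mean level in the ERM and NES inputs followed that in the s6G inputs of the selection (Pearson r = 0.845 and Spearman rho = 0.805 on log2(mean CPM + 0.1), n = 69 genes, which share libraries and gene lengths).

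**Figure D2:**
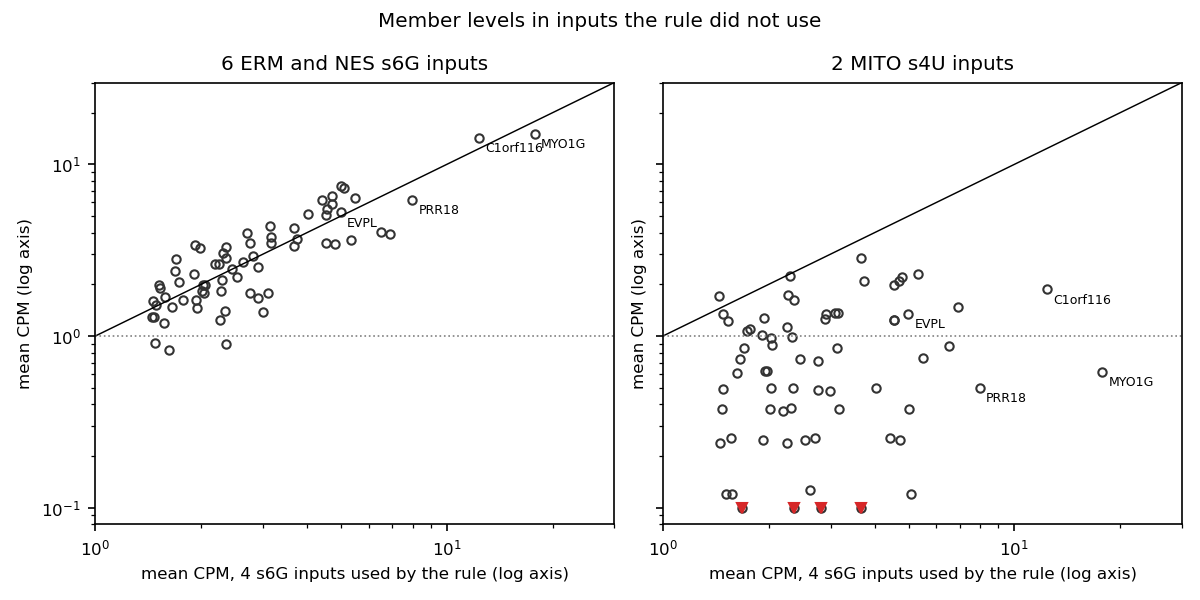
Mean CPM of each of the 69 genes in the 4 s6G inputs used by the selection (horizontal, log axis) against its mean in the 6 ERM and NES s6G inputs (left) and in the 2 MITO s4U inputs (right, log axes), with the line of equality and a dotted line at 1 CPM. Red triangles at the lower edge stand for means under 0.1 CPM. The points on the left follow the line of equality, and 68 of the 69 on the right lie under it, with MYO1G at 17.8 and 0.619 CPM.

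The s4U arm, in MITO cells only, matched the s6G arm in dose and exposure. The 69 genes summed to 68.2 and 52.7 CPM in the s4U inputs, above the 11.5 to 21.5 CPM of the controls and below the s6G inputs. In both s4U inputs 13 of the 69 genes were at 1 CPM or more, against 75 (0.183%) of the near-silent genes. The 69 were chosen to be detectable with s6G and the near-silent genes were not, so these shares do not compare genes of like level. Some of the 13 had come close to the limit in a control (highest value 0.996 CPM for FGF18 and 0.978 CPM for ACPT), and others had not (0.234 CPM for EVPL). The limit was reached in 1 of the 2 s4U inputs by 23 of the 69, and in neither by 33. Both s4U inputs lay above all 8 controls for 26 of the 69, against 1.38% of the near-silent genes. Both MITO s6G inputs lay above both s4U inputs for 57 of the 69, against 3.98% of the near-silent genes, but the s6G side of that comparison was used by the selection, so the count is a description. The level with s4U followed the level with s6G weakly across the genes (r = 0.203, rho = 0.227, n = 69).

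Of the 13 genes that reached 1 CPM in both s4U inputs, 6 were among the 15 with the highest mean in the s6G inputs of the selection, and MYO1G, C1orf116 and PRR18, the top 3 there, were not among the 13. PLEKHD1 was at 3.30 and 2.39 CPM with s4U, FGF18 at 2.28 and 2.15 CPM, and MSANTD1 and CTB-33O18.3 at 2.28 and 1.91 CPM each. PTGDR2 was at 2.03 and 1.91 CPM, and the remaining 8 were FAM150B, MYH7B, EVPL, KLHL35, ACPT, RP11-338K17.5, PROC and ACSL5. KLHL33, PRLHR, RNF225 and ANKRD26P1 had no count in either s4U input. The count of 13 leaned on the limit: at 0.5 CPM it was 28 and at 2 CPM it was 2, and it was 29 from the first and 20 from the second s4U input alone.

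MYO1G had the highest mean CPM in the s6G inputs of the selection. It lay at 16.2, 21.9, 12.7 and 20.4 CPM in the s6G inputs of the selection and at 0 to 0.712 CPM in the controls. In the ERM inputs it was at 10.4, 13.98, 11.7 and 13.7 CPM, and in the NES inputs at 25.1 and 15.6 CPM. All 6 values lay more than 10-fold above the highest control, while the s4U inputs (0.761 and 0.477 CPM) lay within or just above the range of the controls. PRR18, a proline-rich protein found mainly in brain, was at 7.40, 14.3, 4.94 and 5.24 CPM in the s6G inputs of the selection and at 0 to 0.354 CPM in the controls. Its ERM inputs were at 7.35, 8.57, 4.36 and 2.83 CPM and its NES inputs at 8.13 and 6.20 CPM, against 0.761 and 0.239 CPM with s4U. The 4 ERM values spread 3-fold, with libraries 1 and 2 above 3 and 4.

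C1orf116 was at 14.8, 12.9, 9.40 and 12.4 CPM in the s6G inputs of the selection, at 17.3, 14.5, 16.4 and 13.8 CPM in the ERM inputs and at 9.97 and 13.99 CPM in the NES inputs. The controls lay between 0 and 0.830 CPM and the s4U inputs at 3.04 and 0.716 CPM, so that 1 s4U input was above every control and the other was not. EVPL was at 4.27, 6.74, 2.35 and 6.60 CPM in the s6G inputs of the selection and at 0 to 0.234 CPM in the controls. It was at 4.80, 6.12, 4.29 and 5.01 CPM in the ERM inputs, at 6.65 and 4.78 CPM in the NES inputs, and at 1.27 and 1.43 CPM with s4U. EVPL was thus above every control with s4U as well, at a lower level than with s6G. CPM does not allow for gene length. In the authors' deposited MITO table of TPM values, which do, PRR18 (20.7 TPM in the s6G inputs) stood above MYO1G (6.998 TPM), C1orf116 (5.91 TPM) and EVPL (1.44 TPM).

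**Figure D3:**
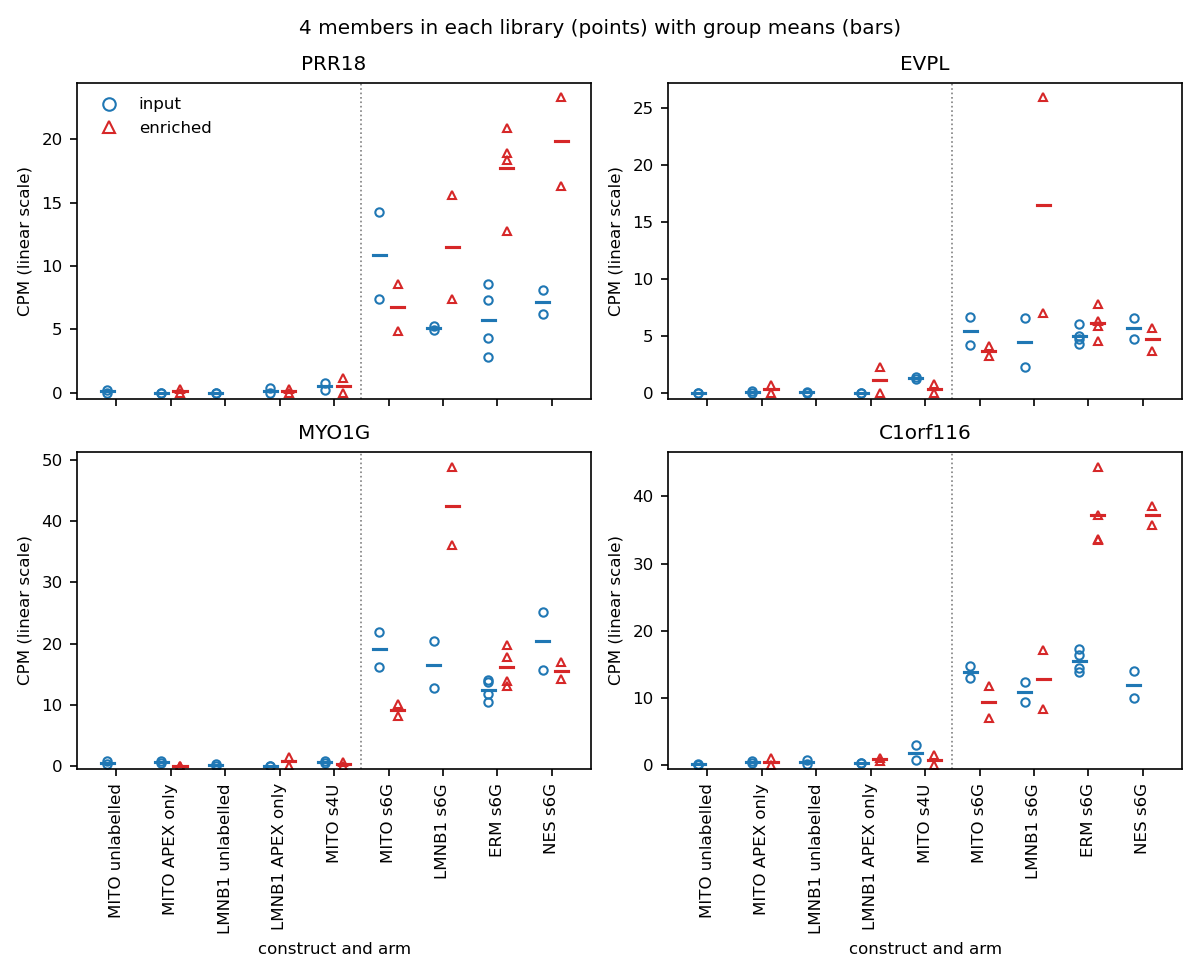
CPM of PRR18, EVPL, MYO1G and C1orf116 (linear axes) in every input (circles) and enriched (triangles) library of 9 construct and arm groups, with bars at the group means; the 4 unlabelled enriched libraries, 3 of them shallow, are left out. Inputs to the right of the dotted line all received s6G and lie above every control input on the left. Enriched libraries lie well above the inputs for C1orf116 and PRR18 with ERM and NES, and not for MYO1G and EVPL.

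Enriched LMNB1 libraries show the same genes in RNA that the beads had held. These libraries were not used by the selection, but they hold RNA of the same cultures as the inputs that were. With s6G all 69 genes were at 1 CPM or more in both libraries, and they summed to 494.5 and 724.9 CPM, against 50.7 and 29.1 CPM in the APEX-only libraries. In edgeR's quasi-likelihood test with Benjamini-Hochberg adjustment over 16525 genes, 43 of the 69 were higher with s6G at an adjusted p of 0.05 and 0 were lower, against 6.41% of all tested genes called higher. Both s6G libraries lay above both APEX-only libraries for 68 of the 69, against 30.8% of all tested genes. Of the 41079 near-silent genes 1249 and 1861 were at 1 CPM or more in the s6G libraries and 1060 and 660 in the APEX-only ones, and the part of this in the result was not tested. Since the 69 passed the expression filter through their s6G libraries, the count describes them and is no independent support. Calls numbered 7 and 6 without APEX-only library 1 or 2, 13 and 10 without s6G library 1 or 2, and 11 of 24 tested under a stricter filter.

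P4HTM, a prolyl hydroxylase of the endoplasmic reticulum membrane, was at 18.1 and 34.3 CPM with s6G and at 0.922 and 0.483 CPM in the APEX-only libraries (log2 difference 5.21 ± 0.78 SE, edgeR adjusted p = 0.00414). MYO1G was at 36.1 and 49.0 CPM against 1.38 and 0 CPM (5.92 ± 1.00, adjusted p = 0.00606). PRR18 was at 7.44 and 15.7 CPM against 0.308 and 0 CPM (6.03 ± 1.13, adjusted p = 0.0104), and C1orf116 at 8.40 and 17.2 CPM against 1.08 and 0.643 CPM (3.89 ± 0.66, adjusted p = 0.00548). The s6G values of PRR18 and C1orf116 differed 2-fold between replicates, yet the groups did not overlap. PYCARD was at 14.5 and 15.0 CPM and at 0 in both APEX-only libraries, at least 62.4-fold higher against a floor of 3 counts over the group, and CTB-50L17.5 was at least 64.9-fold higher by the same measure. EVPL was at 7.03 and 25.9 CPM against 2.31 and 0 CPM and did not pass (3.82 ± 1.47, adjusted p = 0.113).

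By role, 7 of the 8 blood and immune genes passed in LMNB1, with TNFSF13B (2.89 and 2.92 CPM against 0.615 and 0.483 CPM, adjusted p = 0.171) the exception. All 5 secreted proteins and receptors passed, as did 5 of the 7 nervous and endocrine genes, 3 of the 6 genes of epithelia and placenta, 2 of 3 liver, 2 of 3 muscle, 10 of 16 other coding and 9 of 21 noncoding or unmatched genes. Together these are the 43 of the 69 that passed, against 6.41% of all tested genes called higher. The roles were assigned after the list was seen, and differences between them were not tested. Set against the unlabelled enriched LMNB1 libraries, of which the first was shallow, both s6G libraries were higher for 58 of the 69, against 11.1% of the near-silent genes. EVPL (10.7 and 0 CPM) and MYLK3 (11.4 and 6.71 CPM in the unlabelled libraries) were among the 11 that overlapped. MYO1G was at 10.7 and 2.06 CPM there, below its s6G values. Compared with its own inputs the LMNB1 s6G enriched level was higher for 67 of the 69, with a median ratio of the means of 2.95 (range 0.857 to 8.21). The inputs were used by the selection, so this ratio has no test. Near-silent genes at 1 CPM or more, the 69 included, also rose in number, from 316 and 373 in these inputs to 1249 and 1861 after enrichment. The share of all genes that were higher was not computed, so the rise is not shown to be particular to the 69.

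In the MITO cells the enriched libraries held less of these genes. They summed to 184.9 and 138.1 CPM with s6G, 50.5 and 43.2 CPM with s4U and 15.4 and 9.29 CPM with APEX only. The enriched s6G level was higher than that of the s6G inputs for 7 of the 69, with a median ratio of 0.689 (range 0.133 to 1.31), again a description. Near-silent genes at 1 CPM or more, the 69 included, also fell in number, from 499 and 687 in these inputs to 223 and 231 after enrichment. The share of all genes that were lower was not computed, so the fall is not shown to be particular to the 69. The fit tested 51 of the 69, and 33 of the 69 had no count in either APEX-only library. The 6 genes called higher with s6G than with APEX only (0.568% of all 15151 tested genes were called higher) were MYO1G, ZC3H12D, PTGDR2, LRRN4, KLHL33 and CTB-33O18.3. Both s6G libraries lay above both APEX-only libraries for 46 of the 51, against 8.74% of all tested genes, and for 61 of all 69. As with LMNB1, the genes passed the expression filter through their s6G libraries, and the selection used inputs of the same cultures, so these counts and p-values describe the genes and are no independent support. These calls were not stable: there were 0 with scaling by total counts, 0 when any of the 4 libraries was left out, 10 with RLE scaling, 13 with DESeq2, 1 under a stricter filter and 22 under a looser one.

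MYO1G was at 10.1 and 8.16 CPM with s6G and at 0 in both APEX-only libraries, at least 29.2-fold higher against the floor over the group (edgeR adjusted p = 0.0317). PTGDR2 was at 5.89 and 3.53 CPM and LRRN4 at 3.19 and 5.44 CPM, also against 0 in both, at least 15.1-fold (adjusted p = 0.0149) and 13.8-fold higher (adjusted p = 0.0446). ZC3H12D was at 5.65 and 5.71 CPM against 0.368 and 0 CPM (log2 difference 5.75 ± 1.22, adjusted p = 0.0413). PRR18 (8.59 and 4.89 CPM against 0 and 0.290 CPM, adjusted p = 0.0535) and C1orf116 (11.8 and 7.07 CPM against 1.10 and 0 CPM, adjusted p = 0.0660) did not pass. The unlabelled MITO libraries were too shallow to serve as a second control: 1 count was worth 8.11 and 1.19 CPM, and both s6G libraries lay above both of them for 23 of the 69, against 1.66% of the near-silent genes. MYO1G was at 40.5 and 0 CPM there.

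The 2 thionucleosides could be compared in the enriched MITO libraries at matched dose and time. They differ in the base that carries the sulfur, guanine or uracil. The test gave 0 calls among the 51 tested genes, and 0.0% of all 15151 tested genes passed, while 31 of the 51 and 1103 of all genes had an unadjusted p under 0.05. DESeq2 called 1 of the 51, and edgeR with a looser filter called 4 of 69. MYO1G was at 10.1 and 8.16 CPM with s6G and at 0.587 and 0 CPM with s4U, a log2 difference of 5.16 (95% interval 2.67 to 7.64, edgeR adjusted p = 0.277). PRR18 was at 8.59 and 4.89 CPM against 0 and 1.14 CPM (4.16, interval 1.95 to 6.37, adjusted p = 0.354). CTB-33O18.3 was at 4.17 and 2.99 CPM with s6G and at 2.15 and 2.29 CPM with s4U (1.18, interval -0.40 to 2.76, adjusted p = 0.771). KLHL35 was at 1.23 and 2.18 CPM with s6G and at 1.57 and 2.00 CPM with s4U, so the arms overlapped (0.49, interval -1.59 to 2.58). The intervals of MYO1G and PRR18 leave out 0, and the adjusted p of neither passed over all genes. Because the selection used s6G inputs of the same cultures, these intervals and the 31 unadjusted p-values describe the genes and are no independent support. Between s4U and APEX only 0 of the 51 were called (0.0198% of all tested genes; 10 of the 51 had an unadjusted p under 0.05), and between the s4U enriched and input libraries 0 of 51 (0.112% of all; 0 of the 51 under 0.05).

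**Figure D4:**
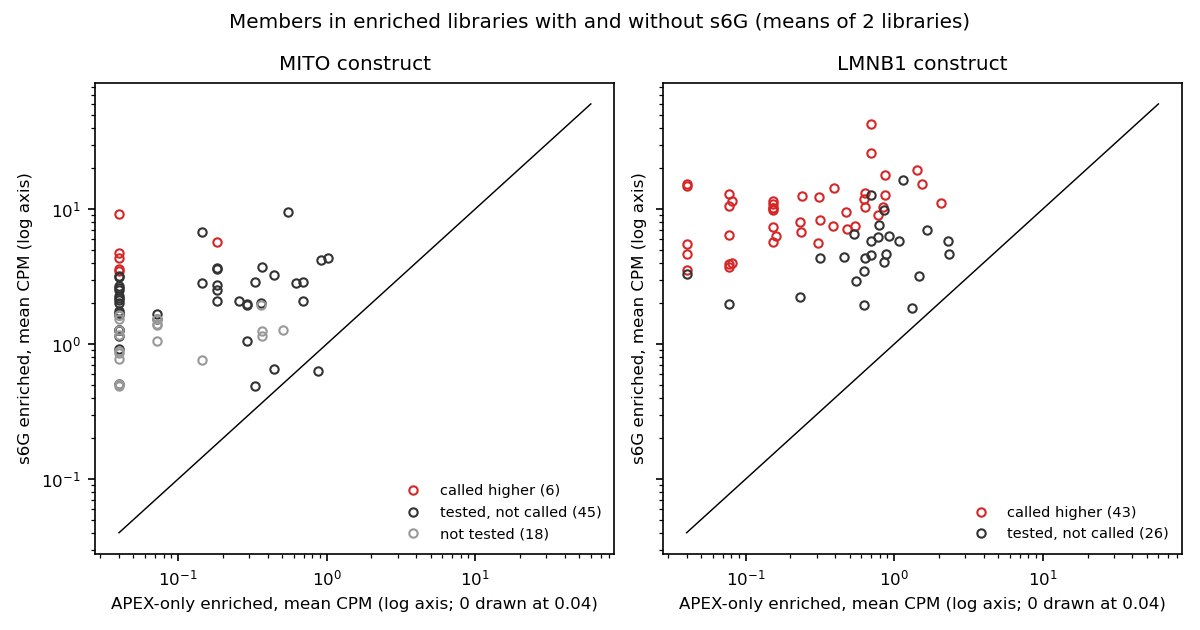
Mean CPM of each of the 69 genes in the 2 APEX-only enriched libraries (horizontal, log axis, 0 drawn at 0.04) and the 2 s6G enriched libraries (vertical, log axis) of MITO (left) and LMNB1 (right), with the line of equality and the edgeR calls in colour. Nearly all points lie above the line in both panels, 6 are called for MITO and 43 for LMNB1, and 33 of the MITO genes have no APEX-only count.

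The ERM and NES libraries allow a comparison of enriched with input RNA in which none of the libraries was used by the selection. The 69 genes, all tested in this fit, summed to 392.4 to 419.6 CPM in the ERM enriched libraries and to 445.6 and 373.0 CPM in the NES enriched libraries. With ERM 29 were higher after enrichment and 1 (VWA3A) was lower, against 34.3% of all 15619 tested genes called higher and 28.9% called lower. The share called higher is thus close to that of all genes (29 of 69 against 34.3%), while the share called lower is small. The median log2 difference was 0.56 over the 69 and 0.11 over all genes. All 4 enriched libraries lay above all 4 inputs for 32 of the 69, against 39.4% of all. With ERM libraries 1 and 2 alone 22 of the 69 were called and with libraries 3 and 4 alone 27. The count of 27, and in part that of 29, rests on the enriched libraries in which all 69 genes had even counts.

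With NES 17 of the 69 were higher and 4 lower (PROC, PYCARD, PTGS1 and CTB-50L17.5), against 28.7% and 26.4% of all tested genes. The median log2 difference was 0.20 against 0.01. Both enriched libraries lay above both inputs for 28 of the 69, against 42.1% of all, and below them for 17, against 37.4% of all. Calls fell from 21 to 8 without the first NES enriched library, to 11 without the first NES input and to 12 without the second. Higher with both constructs were 15 of the 69, against 26.1% of all tested genes. The difference in enrichment between ERM and NES passed for 0 of the 69 and 0.0064% of all tested genes, and 10 of the 69 had an unadjusted p under 0.05, so that fit shows none of the 69 to differ between the constructs. With the replicate block, which pairs each enriched library with its input, RP11-34F20.7 passed, higher with NES (log2 difference -1.10, edgeR adjusted p = 0.149 without and 0.0309 with the block). Across the 69 genes the enrichment with ERM and with NES rose together (r = 0.651, rho = 0.687, n = 69 genes, 1 fit).

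C1orf116 rose from 13.8 to 17.3 CPM in the ERM inputs to 33.5, 44.4, 37.3 and 33.7 CPM after enrichment (log2 0.95 ± 0.14 SE, edgeR adjusted p = 1.02e-05), and from 9.97 and 13.99 CPM to 38.6 and 35.7 CPM with NES (1.57 ± 0.21, adjusted p = 6.67e-06). PRR18 rose to 18.3, 12.8, 20.9 and 18.9 CPM with ERM (1.41 ± 0.26, adjusted p = 0.000117) and to 23.3 and 16.4 CPM with NES (1.41 ± 0.37, adjusted p = 0.00373). Within ERM the PRR18 difference was 0.72 in libraries 1 and 2 and 2.12 in libraries 3 and 4. CD200R1 went from 5.07 to 6.15 CPM to 14.8 to 24.5 CPM with ERM (1.40 ± 0.18, adjusted p = 2.02e-06) and from 6.83 and 6.20 CPM to 22.4 and 20.9 CPM with NES (1.66 ± 0.27, adjusted p = 3.78e-05). Both CD200R1 and PTGDR2 (1.21 ± 0.20 with ERM and 1.12 ± 0.30 with NES, adjusted p = 4.05e-05 and 0.00418) code for cell-surface receptors, whose mRNAs are translated at the endoplasmic reticulum, and both rose with the cytosolic construct too. The largest rise with ERM was that of RP13-672B3.5, from 0.175 to 0.969 CPM to 3.95 to 5.91 CPM (2.52 ± 0.35, adjusted p = 5.00e-06).

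MYO1G and EVPL, by contrast, were not called with either construct. MYO1G was at 13.9, 13.1, 17.7 and 19.7 CPM in the ERM enriched libraries, overlapping its inputs (0.08 ± 0.20, adjusted p = 0.740), and at 16.9 and 14.2 CPM with NES (-0.45 ± 0.28, adjusted p = 0.178). EVPL was at 4.58 to 7.86 CPM with ERM (-0.01 ± 0.23, adjusted p = 0.963) and at 5.71 and 3.74 CPM with NES (-0.33 ± 0.35, adjusted p = 0.440). VWA3A fell from 1.94 to 4.37 CPM to 1.11 to 2.21 CPM with ERM (-0.94 ± 0.39, adjusted p = 0.0406), with overlapping groups. Its call held in ERM libraries 1 and 2 (-1.77) but not in 3 and 4 (-0.37), nor with scaling by total counts (-0.66, adjusted p = 0.150). With NES, PROC fell from 2.03 and 2.13 CPM to 0.122 and 0.773 CPM (-2.28 ± 0.84, adjusted p = 0.0276) and PYCARD from 4.80 and 3.01 CPM to 1.70 and 0.773 CPM (-1.70 ± 0.70, adjusted p = 0.0489). PTGS1, which codes for an enzyme of the endoplasmic reticulum membrane, fell from 4.06 and 3.72 CPM to 1.58 and 1.68 CPM with NES (-1.32 ± 0.50, adjusted p = 0.0332). The PYCARD call was lost with any 1 of the 4 NES libraries left out (adjusted p 0.0526 to 0.266), and that of PTGS1 likewise (0.0915 to 0.127). PROC lost its call in 3 of the 4 cases (0.0862 to 0.213). Among the rises named above, that of PRR18 with NES missed the limit without the first enriched library (1.09, adjusted p = 0.0532) and that of PTGDR2 without the first input (0.92, adjusted p = 0.0505).

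**Figure D5:**
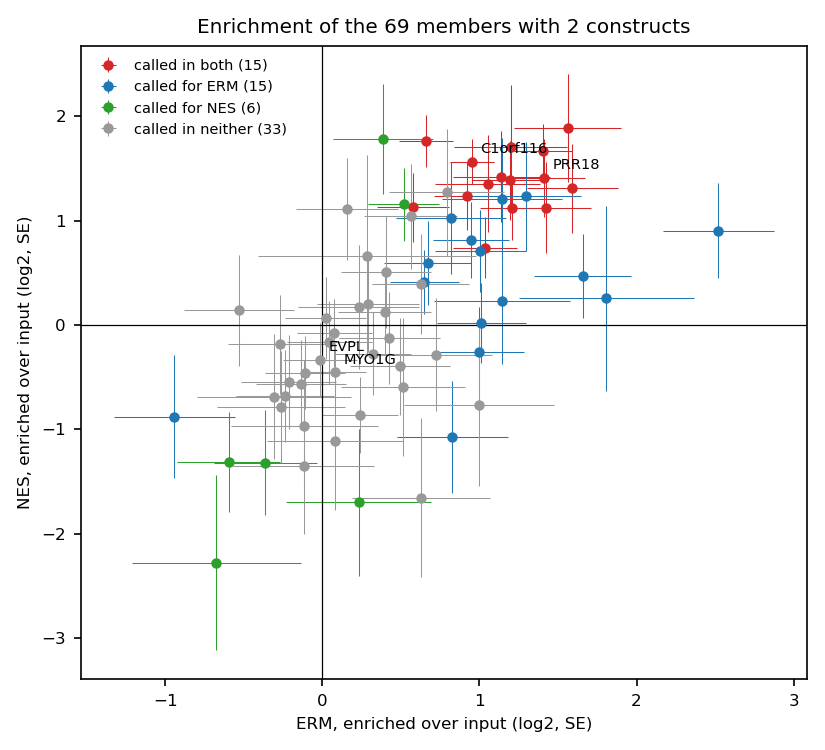
Log2 difference between enriched and input libraries of each of the 69 genes with ERM (horizontal) and NES (vertical), with standard errors from the edgeR fit and colours for the calls (4 libraries per group for ERM, 2 for NES). The 15 genes called with both constructs, among them C1orf116 and PRR18, lie at the upper right, and MYO1G and EVPL lie close to 0 on both axes.

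Other genes of the tissues to which these genes belong were followed in the inputs, without the 69. Of 22 blood-cell markers 10 were near silent in the controls, and PTPRC and CD3E had no count in any of the 20 inputs. The 21 that are not among the 69 summed to 24.8 to 51.5 CPM in the controls and 25.2 to 57.3 CPM in the s6G inputs of the selection. Among these 21, FERMT3 (kindlin 3, an integrin activator of blood cells) was at 4.70 to 7.96 CPM in the s6G inputs of the selection and at 0 to 1.57 CPM in the controls, and CD79A (a B-cell receptor subunit) at 0.970 to 1.68 against 0 to 0.511 CPM, both without overlap and both named after their values were seen. FERMT3 did not pass (edgeR adjusted p = 0.258 for MITO and 0.143 for LMNB1) and CD79A was not tested. The 24 epithelial markers summed to 237.5 to 580.6 and 233.3 to 459.6 CPM, with IVL, KRT5 and PKP1 at 0 in every input. DSP was at 156.7 to 343.3 CPM in the controls and 125.2 to 270.1 CPM in the s6G inputs of the selection. JUP was at 62.69 to 199.9 and 80.82 to 150.6 CPM. DSP and JUP carried most of the sums, which say little of the weaker markers. The 15 neuronal and glial markers summed to 48.0 to 72.4 and 43.0 to 62.3 CPM, with MOG and SOX10 at 0 throughout. No gene of these 3 lists passed in the comparison of s6G with APEX-only inputs, with either construct. That comparison called few genes at all, 0.0528% of those tested for MITO and 0.127% for LMNB1, and DESeq2 called 101 and 290 genes in place of edgeR's 8 and 21. It is the contrast the selection used, so the 69 genes themselves have no test in it.

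Stress-response lists were read the same way. Of 29 immediate-early and AP-1 genes, which cells switch on within minutes of many stimuli, 25 were tested, and 2 were higher with s6G in the LMNB1 inputs and 0 in the MITO inputs. The 29 genes summed to 830.7 to 1646 CPM in the controls, 2038 to 3854 CPM in the s6G inputs of the selection, 1644 to 2530 CPM in the ERM and NES inputs and 947.7 to 1217 CPM with s4U. The s6G inputs of the selection thus lay above all 8 controls, and the lowest ERM or NES input just under the highest control. ATF3, a stress-induced transcription factor, was at 189.9 and 166.3 CPM with s6G and at 39.1 and 44.0 CPM in the APEX-only LMNB1 inputs (log2 2.22 ± 0.26, edgeR adjusted p = 0.0111). In MITO it was at 268.1 and 247.8 CPM against 81.2 and 32.1 CPM (2.40 ± 0.49, adjusted p = 0.0985). JUN, a subunit of AP-1, was at 867.1 and 935.6 CPM against 311.4 and 315.7 CPM in LMNB1 (1.64 ± 0.21, adjusted p = 0.0187). In MITO it was at 1202 and 2371 CPM against 629.1 and 288.9 CPM (2.15 ± 0.51, adjusted p = 0.164). The median over the 25 tested genes was 0.07 in MITO and -0.08 in LMNB1, near the medians over all genes of 0.00 and 0.01. None of 25 p53 targets and none of 18 interferon-response genes (6 tested) passed with either construct. The p53 targets summed to 1099 to 1524 CPM in the controls and 1350 to 1616 CPM in the s6G inputs of the selection. Their sum was 1595 to 2199 CPM in the ERM and NES inputs. PMAIP1 was at 216.5 to 377.6 CPM in the s6G inputs of the selection and at 76.15 to 172.4 CPM in the controls. GADD45A was also higher without overlap (56.85 to 89.53 against 26.32 to 45.33 CPM), and TNFRSF10B lower (43.49 to 51.08 against 56.72 to 100.7 CPM). They were named after their values were seen.

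By position, 55 of the 69 could be placed in RefSeq (GRCh38.p14), on 20 chromosomes, and 25 of these overlap another RefSeq gene. Of the 48 protein-coding ones 27 (56.2%) overlapped or lay within 5000 bases of a gene at 10 CPM or more in the control inputs. The same held for 17.2% of the 5643 other protein-coding genes that were near silent in the controls and for 35.1% of all 18984. Overlap with such a gene was seen for 12.5%, 6.54% and 12.2%. KLHL35 lies 91 bases from RPS3 (1953 CPM in the control inputs and 2424 CPM in the s6G inputs) and P4HTM 237 bases from WDR6 (267.8 and 234.2 CPM). C1orf116 lies 1659 bases from PFKFB2 (30.4 and 22.9 CPM) and MYO1G (chr7:44962662-44979015) 4007 bases from the long noncoding RNA SNHG15 (68.8 and 136.8 CPM). Among the directly adjacent RefSeq genes, those at 10 CPM or more beside EVPL (chr17:76006845-76027306) and PRR18 (chr6:166305300-166308392) are 11478 and 11335 bases away. On its other side EVPL has TEN1-CDK3, 845 bases away and at 0.579 CPM in the control inputs. Genes beyond TEN1-CDK3 were not listed, so a nearer active gene on that side of EVPL may have been missed. Of the 55, 7 overlap a gene at 10 CPM or more in the control inputs, so their counts are uncertain. PTGDR2 overlaps CCDC86 (99.3 and 83.5 CPM) and VWA3A overlaps MOSMO (12.3 and 7.65 CPM). The others are MYH7B, NAALADL1, ACSL5, TTLL9 and SERPINH1P1. Whether counting used strand is not stated in the labels or notes, so reads that run on from a neighbour cannot be told apart from the gene's own, and their part was not tested. The median gene span was 17862 bases for the 48 coding genes and 25791.5 bases for all coding genes.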

How the data were processed

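RNA-seq counts for 57992 Ensembl genes in 40 libraries were analysed. The authors deposited whole-number counts per gene. Alignment to GRCh38/hg38 with HISAT2 2.1.0 and counting with HTSeq 0.7.2 can be read from tools listed in the submitters' processing notes, beside DESeq2; the annotation and strand setting: not given in the sources used here. A deposited MITO table holds log2(TPM + 1), in which the authors added both replicates; the linear value divided by 2 is printed. The authors' deposited tables of log2 fold changes, p-values and a mean signal per gene were read and not used for any result.

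The genes were selected by the rule given with the results, on CPM from total counts and the gene names of the count table; the genes and lists were chosen with earlier results of these data known. Named genes were the 4 marker genes, the 15 highest in ERM and NES inputs, up to 3 called genes of each comparison at either end, those at the edges of the ratio, and up to 2 called genes per list; other genes named for their role or neighbours were chosen after their values were seen. The tests were edgeR's (version 4.0.16, R 4.3.3; quasi-likelihood, TMM, default filter, Benjamini-Hochberg, adjusted p 0.05) in 3 fits: MITO (15151 genes), ERM with NES (15619) and LMNB1 (16525). Alternatives used RLE, total counts, DESeq2 1.42.0, other filters, fits of only the compared libraries, a replicate block and each library left out. Code was tested on simulated counts. Each ± value is a standard error of the model; groups hold 2 libraries (ERM 4). Floors use 3 counts and cover counting error only. Enriched and input libraries of 1 number are 1 biological replicate, per the series design; their deviations correlated with r of 0.04 to 0.64.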

Additional observations from a re-analysis of the deposited data

How the results depend on the processing

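The count of selected genes kept within 1.5 times of 69 with TMM-scaled CPM, ratio limits of 2 and 8, a ratio within each construct, a limit of 2 CPM and current symbols for the dropped names (67, an alternative chosen after seeing the data). It was 109 at a limit of 0.5 CPM (31 of the 69 among them), 2 under the opposite rule and 70 to 110 with 1 input left out. The count at the limit in all 6 ERM and NES inputs was 24 at 2 CPM and 43 to 48 with 1 input left out. In both s4U inputs it was 28 at 0.5 CPM, 2 at 2 CPM, and 20 to 29 from 1 input.

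Calls among the 69 for LMNB1 s6G against APEX only were 11 under the stricter filter, where 24 were tested, and 6 to 13 with a library left out, which leaves 1 library in an arm that is assumed to vary like the other groups. For MITO s6G against APEX only they were 10 with RLE, 0 with total counts, 1 under the stricter filter (11 tested), 22 under the looser filter (69 tested), 13 with DESeq2 and 0 to 0 with a library left out. The looser filter gave 1 call for s4U against APEX only and 4 for s6G against s4U, where DESeq2 gave 1. NES calls were 8 to 17, and ERM calls 25 to 29, with a library left out. Over all genes, calls between s6G and APEX-only inputs for MITO were 0 with total counts, 82 with the looser filter, 101 with DESeq2, 2 with only the compared libraries and 0 to 1 with a library left out. For LMNB1 they were 9, 98, 290 and 4 under the same settings, 241 with the replicate block and 1 to 2 with a library left out.

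An enriched library and its input are paired by the design, while across arms the labels give only a shared number. Deviations of same-numbered inputs correlated across LMNB1 arms with r of 0.43 to 0.55 and across MITO arms with r of -0.6 to 0.65, and those of enriched libraries with r of 0.04 to 0.22 and -0.44 to 0.5. With the replicate block, calls among the 69 were 49 for LMNB1, 6 for MITO s6G, 29 for ERM and 26 for NES, and the ERM and NES difference had 1 call (RP11-34F20.7, lower with ERM). The block ended 2 ERM calls, gained 1 (PTGER1), and gained 5 with NES (MYLK3, SPDEF, HK3 and 2 unmatched genes); it changed no call between s4U enriched and input libraries. No called direction among the named genes reversed. Scaling by total counts moved the median of all genes to -0.37 in MITO s6G against APEX only, -0.50 in s6G against s4U, -0.44 in s4U enriched against input, 0.20 in the ERM and NES difference and 0.42 with ERM, where 39 were then higher and 0 lower. The cause of these shifts was not tested. The genes had 24 to 294 counts each over the 4 s6G inputs of the selection.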
